A study of Mus musculus with 6 samples.

Results

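The Ly49 receptors are C-type lectins of the NK cell surface that are encoded by the Klra genes, and 6 of these genes were followed: Klra1 (Ly49A), Klra3 (Ly49C), Klra4 (Ly49D), Klra7 (Ly49G), Klra8 (Ly49H) and Klra9 (Ly49I). They are 6 of the 11 features whose names begin with Klra, among 34187 gene features. Their UMIs were read in the cells that the authors had annotated as NK, Cycling_NK, Cycling_T and gdT/NKT, which numbered 1418 of the 2084 annotated T and NK cells. The PBS library gave 307 of its 516 annotated cells, the mono-IL10 library 458 of 843 and the IL10/2-Trikine library 653 of 725. Of the 1418 cells, 885 carried the hashtag of a single mouse. The comparisons between treatments drew on these cells but not on all of them, as a mouse needed at least 5 cells in a cluster.

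All groups were C57BL/6 mice bearing subcutaneous 6694c2vTRP1 tumors, a pancreatic ductal adenocarcinoma line. They received PBS, mono-IL10 (a monomeric IL-10, 26 µg per mouse) or IL10/2-Trikine (IL-10 engineered so that it also engages an IL-2 receptor chain, 30.6 µg per mouse) intraperitoneally in 2 doses from day 8. Tumors were taken on day 14, CD45+ cells were isolated with beads and each mouse was marked with a hashtag antibody. The 5 mice of a treatment were then pooled into 1 droplet library of 5' transcripts, so a treatment and its library cannot be told apart. The 3 comparisons are not independent, because each pair of them shares the mice of a group.

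Ly49 receptors recognize MHC class I on other cells and are transcribed from a cluster of related genes on mouse chromosome 6. Ly49A, Ly49C, Ly49G and Ly49I are inhibitory receptors with an inhibitory tyrosine motif in the cytoplasmic tail. Ly49D and Ly49H lack it and signal through the adaptor DAP12, the product of Tyrobp. Ly49H recognizes a cytomegalovirus protein. A single NK cell expresses a subset of the family, largely independently for each gene, and NKT cells and other unconventional T cells are known to carry mainly inhibitory members.

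The sequences just upstream of the transcription start sites are shown because the members fall into groups of close copies there, and because Klra4 and Klra8, the activating members, are such copies. The 250 bases before each start were taken from RefSeq (GRCm38.p6, all on the minus strand of chromosome 6 and written 5′ to 3′), whereas the counts were made by the authors on GRCm39. They lie at chr6:130067272-130067521 for Klra4, chr6:130129899-130130148 for Klra8 and chr6:130233323-130233572 for Klra7. Capitals mark the bases of Klra8 and Klra7 that differ from the aligned base of Klra4.
Klra4: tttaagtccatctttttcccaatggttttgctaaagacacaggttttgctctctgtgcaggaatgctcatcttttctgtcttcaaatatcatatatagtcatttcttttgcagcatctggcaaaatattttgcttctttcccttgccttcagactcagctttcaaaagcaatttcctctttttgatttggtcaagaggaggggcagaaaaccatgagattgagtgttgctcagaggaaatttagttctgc
Klra8: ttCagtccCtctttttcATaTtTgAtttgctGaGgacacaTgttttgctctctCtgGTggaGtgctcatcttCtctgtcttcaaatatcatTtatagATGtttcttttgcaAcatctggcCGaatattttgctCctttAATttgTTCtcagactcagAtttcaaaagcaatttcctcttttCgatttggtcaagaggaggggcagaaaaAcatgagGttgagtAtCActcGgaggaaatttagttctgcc
Klra7: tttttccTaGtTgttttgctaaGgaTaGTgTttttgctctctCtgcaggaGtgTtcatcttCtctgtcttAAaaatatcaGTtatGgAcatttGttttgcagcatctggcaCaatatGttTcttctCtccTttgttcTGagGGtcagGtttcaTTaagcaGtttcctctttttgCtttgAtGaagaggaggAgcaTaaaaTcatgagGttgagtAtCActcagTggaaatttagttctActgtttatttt

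For Klra3 (chr6:130337627-130337876) and Klra9 (chr6:130193113-130193362), both inhibitory, capitals mark the bases of Klra9 that differ from Klra3.
Klra3: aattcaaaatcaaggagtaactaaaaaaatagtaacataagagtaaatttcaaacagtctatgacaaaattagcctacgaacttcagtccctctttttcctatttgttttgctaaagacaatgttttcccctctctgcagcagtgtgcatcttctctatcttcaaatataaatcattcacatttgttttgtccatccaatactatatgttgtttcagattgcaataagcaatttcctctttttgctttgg
Klra9: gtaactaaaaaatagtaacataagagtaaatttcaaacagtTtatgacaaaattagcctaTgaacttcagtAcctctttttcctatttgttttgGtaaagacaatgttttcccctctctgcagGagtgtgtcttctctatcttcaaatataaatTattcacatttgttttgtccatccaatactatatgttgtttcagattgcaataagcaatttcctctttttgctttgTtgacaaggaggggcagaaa

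In pairwise alignment Klra3 and Klra9 were identical at 224 of 234 columns (95.7%), Klra4 and Klra8 at 212 of 249 (85.1%), and Klra7 at 81.0% with Klra4 and 81.4% with Klra8. Klra1 (chr6:130386875-130387124) was at 50.6% to 53.6% with the others. The letters TTCNNNGAA, the core bound by STAT factors, were found in none of the 300-base windows (250 before and 50 after the start) that begin with the bases shown, on either strand. They were found in 8.30% of all 32851 such windows. A second RefSeq start of Klra7 held them at 2 positions, with first bases at -189 and 8 relative to the start. CTTTGAT, the core of the TCF and LEF factors (3.73% of windows), was in the Klra7 window at -76. TGTGGT, that of RUNX factors (16.8% of windows), was in the Klra1 window at -201. TATAAA (13.6% of windows) was in the Klra3, Klra8 and Klra9 windows, at -84, -160 and -103. It was also in the second Klra7 window at -163 and -89 and in that of a second Klra8 start at -223. AGATAA, the core of GATA factors (11.2% of windows), was in the second Klra7 window at -24.

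The copies also limit how far reads can be assigned. Of all 90-base windows along the annotated transcripts, none of those of Klra1 and Klra4 occurred in another Klra gene, against 2.83% for Klra3, 3.33% for Klra7, 6.34% for Klra9 and 16.1% for Klra8. Most of these shared Klra8 windows (14.5% of all its windows) matched the pseudogene Klra14-ps. The windows run along whole annotated transcripts, whereas the libraries were of 5' ends and intronic reads were counted. Sharing at the bases that the reads covered was not measured.

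The authors' cluster names were checked against markers. In the 795 NK cells Ncr1 was found in 44.3%, Klrb1c in 59.2% and Cd3e in 1.13%, and in the 206 gdT/NKT cells Cd3e was found in 57.3% and Trdc in 16.0%. Both gdT/NKT and Cycling_T were mixtures of cells with more NK marker UMIs (NK-rich) and cells with more T cell marker UMIs (T-rich). Cells were split by 5 NK markers (Fcer1g, Tyrobp, Klre1, Ncr1 and Klrb1c) and 5 T cell markers (Cd3e, Cd3d, Cd3g, Trac and Trbc2). Of the 349 Cycling_T cells, 162 had more NK than T cell marker UMIs, and the reverse held for 183. Under PBS such NK-rich cells made up 29.1% of the cluster, under mono-IL10 15.0% and under IL10/2-Trikine 73.6%, so Cycling_T values are given below for both kinds. Of the 206 gdT/NKT cells, 117 (56.8%) were NK-rich by the same count, with 43.6% under PBS, 54.7% under mono-IL10 and 79.2% under IL10/2-Trikine. Median depth per annotated cell was 2780 (PBS), 3959 (mono-IL10) and 2635 (IL10/2-Trikine) UMIs. Between 408 and 700 barcodes were shared by pairs of libraries, and none of these was an annotated cell in both.

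NK cells carried all 6 members, and the activating ones were among the most frequent. Over the 3 libraries a UMI of Klra8 was found in 28.6% of NK cells, of Klra4 in 28.3% and of Klra7 in 28.3%, and the binomial intervals of these shares overlapped. Klra9 followed with 21.6%, Klra3 with 13.8% and Klra1 with 8.93% (exact 95% binomial intervals 18.8 to 24.7, 11.5 to 16.4 and 7.04 to 11.1, which cover counting error only). A positive NK cell held 3.88 UMIs of Klra4 and 3.72 of Klra8 on average, and up to 26 and 27. For Klra1, Klra3, Klra7 and Klra9 the average was 2.23 to 3.14. The order was not the same in each library. Klra9 was found in 15.9% of the PBS, 27.3% of the mono-IL10 and 20.4% of the IL10/2-Trikine NK cells, and Klra7 in 24.7%, 26.1% and 31.5%. The counts are of 5' ends and were not divided by transcript length.

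The gdT/NKT cells had another repertoire. Klra7 was found in 46.6% and Klra1 in 38.8% of them, against 3.88% for each of Klra4 and Klra8 (8 of 206 cells, interval 1.69 to 7.51). Klra9 was found in 16.0% and Klra3 in 10.2%. Among the 77 gdT/NKT cells with more T cell than NK marker UMIs, 48.1% had Klra7 and 31.2% had Klra1, and none had a UMI of Klra4 or Klra8. A count of 0, taken as 3 cells of the total, allows up to 3.90% of such cells with a UMI of either gene, which limits detection and not expression. The 33 cells with a Trdc UMI and the 173 without one had Klra7 in 42.4% and 47.4% and Klra1 in 36.4% and 39.3%.

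**Figure D1:**
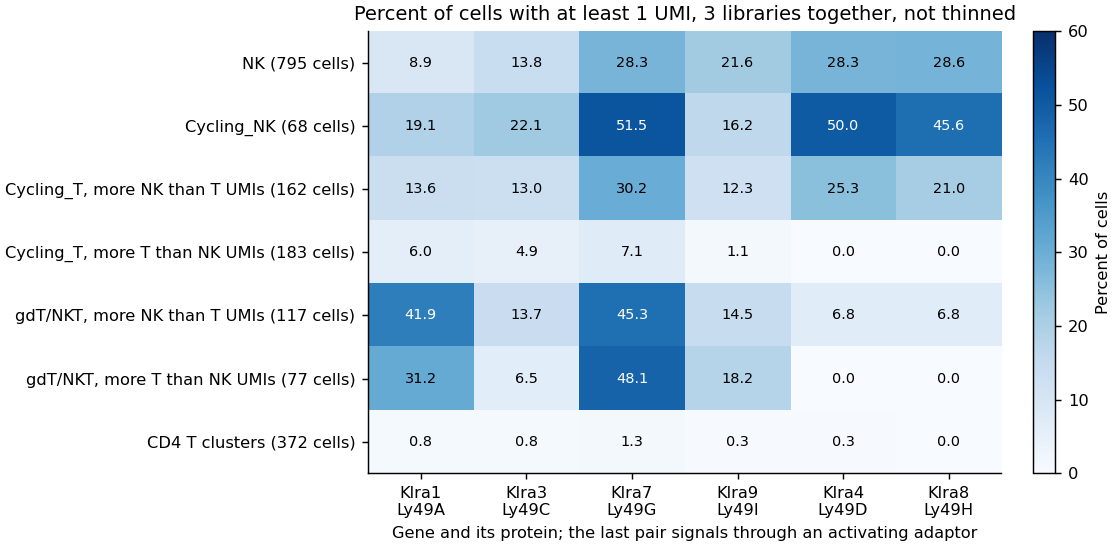
Percent of cells with at least 1 UMI of each Ly49 gene (columns) in groups of annotated cells (rows), with all 3 libraries together and no thinning, where darker blue is a higher percent. Klra4 and Klra8 were in 28.3% and 28.6% of NK cells and in none of the T-rich gdT/NKT cells, where Klra7 (48.1%) and Klra1 (31.2%) led.

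The same contrast held mouse by mouse. Klra4 and Klra8 together gave 52.5% of the 3272 member UMIs in NK cells and 6.72% of the 580 in gdT/NKT cells, where Klra1 and Klra7 gave 74.3%. Per mouse the share of Klra4 and Klra8 was 51.0% ± 10.3 (SD, n = 15) in NK cells, with a range of 31.7% to 62.0%. In gdT/NKT cells it was 3.94% ± 6.83 (SD, n = 12) with a range of 0% to 18.2%, so the mice of the clusters did not overlap. Cells of both clusters came from the same mice and libraries, and the contrast was not tested.

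CD4 T cells served as the background for free RNA. In 372 cells of the Treg, act_CD4T and naive_CD4T clusters each member was found in 0% to 1.34%, and any of them in 13 cells (3.49%). Klra8 was in none of the 372, which allows up to 0.806% of cells with a UMI. Klra4 and Klra8 were each found in 8 of the gdT/NKT cells (3.88%), above the share of either gene in the CD4 T cells. All of these 8 and 8 cells were among the gdT/NKT cells that did not have more T cell than NK marker UMIs.

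In Cycling_T cells the repertoire divided in the same way as the markers. Among the 162 NK-rich cells Klra7 was found in 30.2%, Klra4 in 25.3% and Klra8 in 21.0%. Among the 183 T-rich cells Klra7 was found in 7.10%, Klra1 in 6.01% and Klra3 in 4.92%. None of them had a UMI of Klra4 or Klra8, which allows up to 1.64% of cells with a UMI of each. Of the 68 Cycling_NK cells, 54 came from the IL10/2-Trikine library. Among those 54 the activating Klra4 was found in 57.4% and Klra8 in 42.6%, and the inhibitory Klra7 in 55.6%, whereas Klra4 was in 1 and Klra8 in 5 of the 10 mono-IL10 cells. By UMIs, Klra4 and Klra8 made up 46.2% of the member UMIs of all Cycling_NK cells.

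The comparison of treatments asked whether either cytokine changed Ly49 transcripts in NK cells, with UMIs summed per mouse. All 6 members passed the filter on low counts. In mono-IL10 the NK cells had more Klra9 than in PBS, by 2.55-fold (95% interval 1.70 to 3.81), and the other 5 members did not pass the test in any of the comparisons. All 6 members had a positive log2 difference from PBS under both treatments, which share the PBS mice, beside 49.0% of genes in IL10/2-Trikine and 50.9% in mono-IL10.

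Klra9, the inhibitory Ly49I, was the member with the least spread in mono-IL10. Its levels in CPM (UMIs of the gene per 1000000 gene UMIs of the same cells) were 0, 95.6, 50.7, 132 and 44.0 in the PBS mice, 212, 216, 190, 198 and 221 in the mono-IL10 mice and 168, 164, 68.4, 71.1 and 154 in the IL10/2-Trikine mice. Every mono-IL10 mouse lay above every mouse of the other groups, which themselves overlapped. The log2 difference of mono-IL10 from PBS was 1.35 ± 0.29 (SE), with an adjusted p of 0.0049 by edgeR's quasi-likelihood test over 2157 genes. This was 1 of 6 members called, against 0.881% of all genes called in either direction and 0.742% called higher. Mice that did not overlap in this direction were seen for 1.34% of genes. DESeq2 gave a log2 difference of 1.41 ± 0.36 and no adjusted p for Klra9, which its filter on low counts had set aside. IL10/2-Trikine was lower than mono-IL10 by a log2 difference of -0.66 ± 0.24 that was not past the threshold (edgeR adjusted p = 0.129). Mice that did not overlap in that direction were seen for 2.23% of genes.

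Klra7, the inhibitory Ly49G and a gene on the study's own list of STAT5 targets, was at 177, 113, 84.6, 101 and 132 CPM in the PBS mice. It was at 250, 146, 618, 174 and 232 CPM in mono-IL10 and at 271, 158, 570, 142 and 340 CPM in IL10/2-Trikine. In each treated group 3 of 5 mice lay above all PBS mice and all 5 lay above the PBS median, while the ranges overlapped. The log2 difference from PBS was 1.24 ± 0.54 in IL10/2-Trikine (edgeR adjusted p = 0.268) and 1.15 ± 0.51 in mono-IL10 (edgeR adjusted p = 0.402), neither past the threshold. Klra7 was called against PBS in IL10/2-Trikine without the filter (adjusted p = 0.0023, beside 0.258% of genes), with mice of at least 10 NK cells (0.0249, beside 3.19%), with these groups alone in the fit (0.0259, beside 6.51%) and by DESeq2 (0.0367, beside 9.82%). Without the filter Klra7, Klra8 and Klra9 were called in mono-IL10 against PBS, beside 0.236% of 13971 genes.

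The activating members varied widely among the PBS mice. Klra4 was at 206, 34.7, 220, 311 and 308 CPM in the PBS mice, at 402, 361, 412, 262 and 153 in mono-IL10 and at 258, 278, 365, 261 and 251 in IL10/2-Trikine. Klra8 was at 59.0, 78.2, 304, 233 and 87.9 CPM in PBS, at 352, 396, 285, 300 and 190 in mono-IL10 and at 142, 177, 753, 213 and 347 in IL10/2-Trikine. The groups overlapped for both genes. The log2 differences of Klra4 were 0.41 ± 0.44 for IL10/2-Trikine and 0.63 ± 0.41 for mono-IL10 from PBS, and those of Klra8 were 0.81 ± 0.51 and 0.96 ± 0.47. Between the treated groups the intervals of the fold ran from 0.498 to 1.47 for Klra4 and from 0.493 to 1.66 for Klra8.

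Klra3, the inhibitory Ly49C, had its highest mean in IL10/2-Trikine, at 108 ± 49.4 CPM, against 41.8 ± 31.6 in PBS and 65.2 ± 53.9 in mono-IL10 (SD, n = 5 each). IL10/2-Trikine mice ranged from 68.4 to 193 CPM and PBS mice from 0 to 84.6, so they overlapped. The log2 difference was 1.25 ± 0.56 (edgeR adjusted p = 0.252). Klra1, the inhibitory Ly49A, was found in the smallest share of NK cells, though its mean CPM was above that of Klra3 in PBS and mono-IL10. It was at 44.8 ± 42.3, 102 ± 132 and 86.5 ± 52.5 CPM in PBS, mono-IL10 and IL10/2-Trikine (SD, n = 5 each). Its mono-IL10 mean included 1 mouse at 333 CPM, measured in 9 NK cells.

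**Figure D2:**
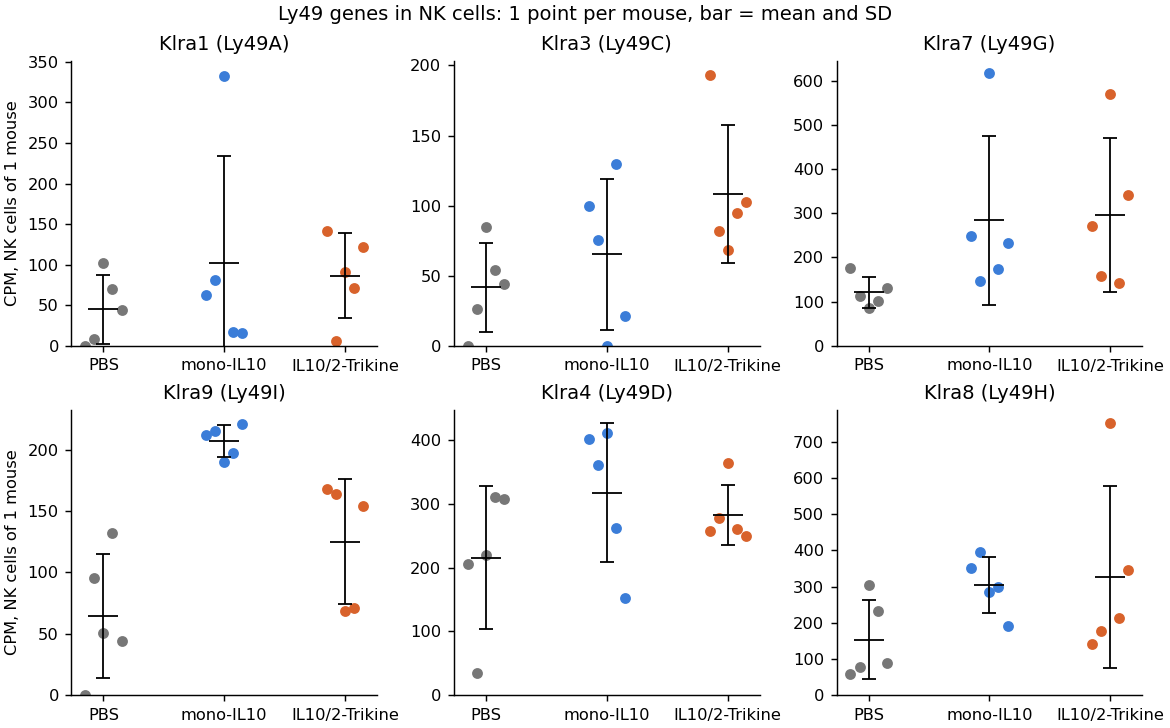
CPM of each Ly49 gene in NK cells, with a point per mouse (5 in each treatment) and bars at the mean and SD of each group. The 5 mono-IL10 mice lay between 190 and 221 CPM for Klra9, above all mice of the other groups, while the groups overlapped for the 5 other genes.

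In IL10/2-Trikine against PBS 0 of 6 members were called, beside 3.57% of 2157 genes. At an unadjusted edgeR p under 0.05 there were 3 of 6, beside 16.3% of all genes, and by DESeq2 1 member (Klra7) was called. The median log2 difference of the members was 0.79, against -0.01 over all genes tested. In mono-IL10 against PBS it was 0.92, against 0.01. In IL10/2-Trikine against mono-IL10 0 of 6 members were called, beside 3.25% of genes, with 1 of 6 at an unadjusted p under 0.05, beside 15.5% of all genes, and 0 by DESeq2. The median there was -0.03.

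Summed over the 6 genes, the PBS mice had 641 ± 240 CPM, the mono-IL10 mice 1281 ± 375 and the IL10/2-Trikine mice 1225 ± 435 (SD, n = 5 each). These PBS values ranged from 356 to 901, those of mono-IL10 from 832 to 1838 and those of IL10/2-Trikine from 854 to 1916. The sums of 6 NK markers, those named above with Eomes added, moved in the same direction. They were at 5054 to 5836 CPM in the PBS mice, 6312 to 7782 in mono-IL10 and 6200 to 7937 in IL10/2-Trikine. All 6 markers were detected in each library, and their part in the Ly49 values was not tested. T cell markers summed to 122 to 352, 47.5 to 274 and 142 to 244 CPM in the same order, and the B cell markers were at 0 in every mouse.

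**Figure D3:**
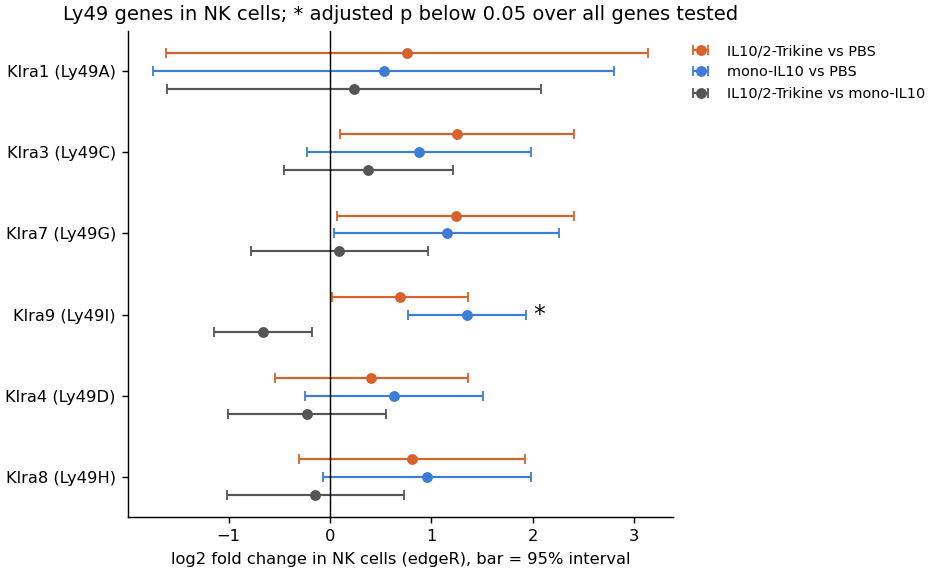
Log2 difference of each Ly49 gene in NK cells for the 3 comparisons, as fitted by edgeR with 95% intervals, with 0 as no difference. Only the interval of Klra9 in mono-IL10 against PBS (log2 difference 1.35) belongs to a gene with an adjusted p under 0.05.

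Genes around the receptors were read in the same fits. Among 9 adaptor and signaling genes 4 were tested, and Tyrobp, the adaptor of Ly49D and Ly49H, rose in both treated groups. Its log2 difference from PBS was 0.59 ± 0.11 in IL10/2-Trikine (edgeR adjusted p = 0.000216) and 0.70 ± 0.11 in mono-IL10 (adjusted p = 9.5e-06). Tyrobp is also 1 of the 6 NK markers. None of the other 3 tested adaptors (list median 0.24 against PBS in IL10/2-Trikine) passed.

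All 3 MHC class I genes were tested, and B2m, the light chain of the molecules that inhibitory Ly49 receptors bind, fell in IL10/2-Trikine. Its log2 difference was -0.33 ± 0.09 from PBS (edgeR adjusted p = 0.0233) and -0.42 ± 0.09 from mono-IL10 (adjusted p = 0.0023). Without the filter on low counts the call against PBS was lost (adjusted p = 0.730). H2-K1 and H2-D1 did not pass. Of 10 transcription factor and cytokine receptor genes 8 were tested, and Tcf7, whose product TCF-1 is tied to the acquisition of Ly49 receptors, fell by 1.44 on the log2 scale from PBS (SE 0.34, edgeR adjusted p = 0.0082) and by 1.13 from mono-IL10 (SE 0.31, adjusted p = 0.027). In mono-IL10 against PBS 0 of the 8 passed, with 1 at an unadjusted p under 0.05 (12.1% of all genes). Without the filter 1 of 10 was called higher (Id2, edgeR adjusted p = 0.0208), beside 0.236% of 13971 genes called in either direction.

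Of 13 other lectin receptor genes of the NK gene complex 9 were tested. Against PBS, IL10/2-Trikine had higher Klrd1 (CD94, 0.58 ± 0.15, edgeR adjusted p = 0.0161) and Klrb1c (NK1.1, 0.79 ± 0.21, adjusted p = 0.0189) and lower Klrb1b (-0.75 ± 0.23, adjusted p = 0.0481). Against mono-IL10 it had higher Klrb1c (0.70 ± 0.18, adjusted p = 0.0163). Without the filter these calls were lost, with adjusted p of 0.0670 for Klrd1, 0.0630 for Klrb1c and 0.328 for Klrb1b against PBS, and 0.292 for Klrb1c against mono-IL10. None of the 9 was called in mono-IL10 against PBS, with 3 at an unadjusted p under 0.05 (12.1% of all genes). Without the filter 1 of 13 was called higher (Klri2, edgeR adjusted p = 0.0294), beside 0.236% of 13971 genes called in either direction. The 5 other Klra genes were too low to be tested in NK cells.

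How many members a cell carried was counted after thinning every cell to 1500 UMIs, which left out no cell. An NK cell then had on average 0.60, 0.333, 0.833, 0.806 and 0.769 of the 6 genes in the PBS mice. In mono-IL10 the averages were 1.04, 0.971, 1.44, 0.870 and 0.871, all above every PBS mouse at this depth. In IL10/2-Trikine they were 1.46, 0.721, 1.63, 0.885 and 1.14, of which 4 lay above every PBS mouse. The group means were 0.668 ± 0.208, 1.04 ± 0.237 and 1.17 ± 0.381 (SD, n = 5 each). The PBS and mono-IL10 mice overlapped at the other depths. Thinned to 1000 UMIs the PBS mice had 0.125 to 0.742 members per cell and the mono-IL10 mice 0.581 to 1.11, and without thinning they had 0.60 to 1.26 and 1.17 to 1.78.

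The share of NK cells with 2 or more members was 19.1% ± 8.58 for the PBS mice, 31.9% ± 7.29 for those of mono-IL10 and 38.7% ± 13.8 for those of IL10/2-Trikine (SD, n = 5 each). Cells with any member were 43.6%, 53.4% and 59.0%. Counted over whole libraries, cells of no known mouse included, 2 or more members were seen in 19.4% (exact 95% interval 13.8 to 26.2), 31.6% (25.9 to 37.7) and 34.4% (29.6 to 39.5). Without thinning these shares were 33.5%, 41.9% and 45.4%. Thinned to 1000 UMIs the means over mice were 13.8%, 28.8% and 24.6%, so the order of the treated groups turned with the depth. Also without thinning, 5 NK cells had 5 members and none had all 6, which allows up to 0.377% of cells with UMIs of all 6. These shares were described and not tested.

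**Figure D4:**
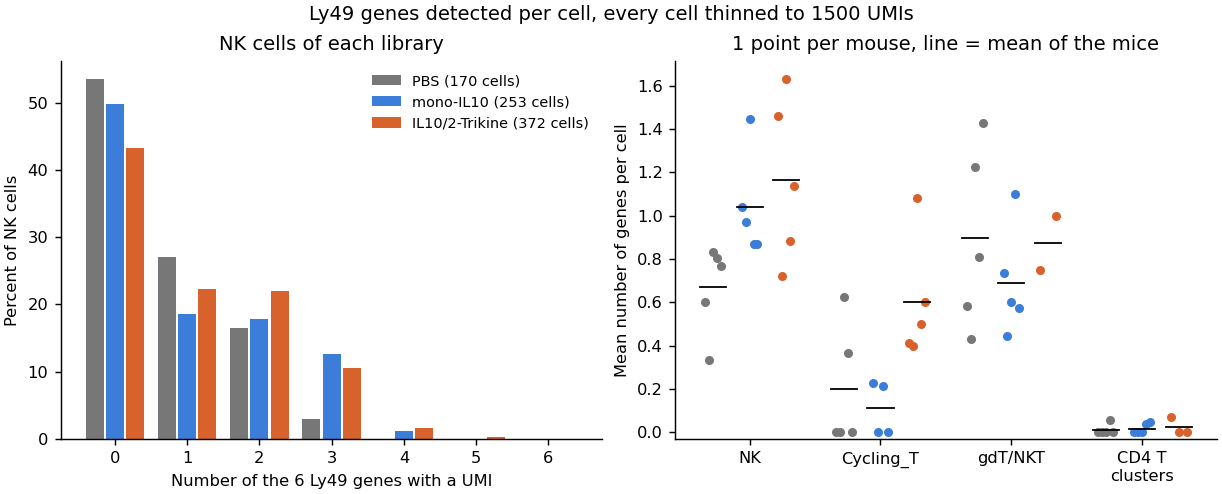
Ly49 genes detected per cell after thinning to 1500 UMIs, as the percent of NK cells of each library with 0 to 6 of them (left bars), and as the mean number per cell with a point per mouse and a line at the group mean for 4 kinds of cells (right). In NK cells the mono-IL10 mice (0.870 to 1.44) lay above all PBS mice (0.333 to 0.833) at this depth, while they overlapped at 1000 UMIs and without thinning.

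Pairs of members were unevenly shared. After thinning, Klra8 was found in 49.7% of the 175 NK cells with Klra4 and in 13.9% of those without it, the widest such gap among the 15 pairs. Klra4 and Klra8 are next to each other in the order of the Klra genes along the chromosome, and they are the activating pair. Klra7 was in 33.7% of the Klra4 cells and in 17.9% of the others. Klra9 was in 13.9% of the 72 cells with Klra3 and in 15.8% of those without. Without thinning this turned, with Klra9 in 27.3% of the 110 cells with Klra3 and in 20.7% of the others, so no order is read from this pair. The libraries were counted together, and cells of high Ly49 content enter every pair, so the shares are a description.

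Without thinning 325 NK cells (40.9%) had none of the members, and the others showed 52 combinations. The most frequent were Klra7 alone (44 cells), Klra4 with Klra7 and Klra8 (34 cells), Klra4 with Klra8 (30 cells), Klra9 alone (30 cells) and Klra3 alone (23 cells). In gdT/NKT cells there were 25 combinations, led by Klra1 with Klra7 (38 cells, 18.4%), Klra7 alone (30 cells) and Klra1 alone (22 cells). After thinning, 46.4% of the 56 gdT/NKT cells with Klra1 had Klra7, against 30.7% of those without it.

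In Cycling_T cells Klra7 was the only member that passed the filter on low counts. It was at 0, 0, 181, 174 and 0 CPM in the PBS mice, at 128, 0, 133 and 0 in the 4 mono-IL10 mice with at least 5 such cells, and at 229, 159, 164, 170 and 211 in IL10/2-Trikine. All IL10/2-Trikine mice lay above the mono-IL10 mice, a pattern seen in this direction for 4.4% of 1341 genes, and they overlapped with PBS. Klra7 passed the filter through its level in the IL10/2-Trikine mice, so this pattern is a description and no support for a difference. The log2 difference was 1.23 ± 0.76 from mono-IL10 (edgeR adjusted p = 0.406) and 1.29 ± 0.96 from PBS (adjusted p = 0.570), and that of mono-IL10 from PBS was 0.06 ± 0.99 (adjusted p = 0.989). No member was called, beside 6.56%, 3.88% and 1.19% of genes in these comparisons, none had an unadjusted p under 0.05 and DESeq2 called none.

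The make-up of the cluster moved with these levels. The 6 NK markers, Eomes included, summed to 1357 to 2482 CPM in the PBS mice, 732 to 1639 in mono-IL10 and 2283 to 3660 in IL10/2-Trikine. T cell markers summed to 1720 to 3027, 3186 to 3726 and 985 to 1631 CPM in the same order, with no overlap between groups, and markers of ILC1 and tissue residence had means of 354, 362 and 155 CPM. The part of these markers in the Klra7 values was not tested. Among NK-rich Cycling_T cells any member was found in 10 of 16 in PBS, 9 of 18 in mono-IL10 and 71 of 128 in IL10/2-Trikine (55.6% over all 162). Among T-rich cells it was found in 3 of 39, 8 of 101 and 13 of 43 (7.69%, 7.92% and 30.2%). By the NK markers without Eomes, on which the cells were split, these 43 cells had 581 CPM, against 256 in PBS and 240 in mono-IL10. Tyrobp rose in the cluster as well, by a log2 difference of 0.99 from PBS (edgeR adjusted p = 0.0095) and 1.44 from mono-IL10 (adjusted p = 4.9e-05). Of the other lists, Klre1 (1.52 ± 0.31), Klrd1 (0.86 ± 0.20) and Il2rb, the IL-2 receptor beta chain (0.96 ± 0.17), rose from mono-IL10, and B2m fell by 0.47 from PBS (SE 0.09, edgeR adjusted p = 0.0020). Without the filter the calls of Klrd1 (adjusted p = 0.140) and B2m (adjusted p = 0.384) were lost, while 6 of 13 lectin receptor genes were called higher than in mono-IL10 (beside 0.263% of 13291 genes), against 2 of 4 tested with it (beside 2.98% of 1341 genes).

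Whether the treatments acted differently on NK and Cycling_T cells was tested as an interaction over 2096 genes. Between IL10/2-Trikine and mono-IL10, Klra9 differed by 2.59 ± 0.73 on the log2 scale (edgeR adjusted p = 0.0385), being higher in Cycling_T relative to NK cells. This was 1 of 6 members, beside 2.29% of genes. Other genes of the lists were called in the same direction. Of 9 tested lectin receptor genes of the NK gene complex 5 were higher (list median 1.23, against -0.01 over all genes), led by Klri2 (3.52 ± 0.62), Klrb1f (2.99 ± 0.64), Klrb1b (2.38 ± 0.59) and Klre1 (1.23 ± 0.34), as were Tyrobp (1.48 ± 0.29), Tcf7 (2.29 ± 0.50) and Il2rb (0.80 ± 0.20). NK-rich cells made up 73.6% of Cycling_T in IL10/2-Trikine and 15.0% in mono-IL10, and their part in these differences was not tested. In Cycling_T cells Klra9 was at 0, 0, 25.8, 104 and 0 CPM in the PBS mice, at 0, 15.0, 17.3 and 21.1 in mono-IL10 and at 98.0, 39.7, 0, 0 and 60.4 in IL10/2-Trikine, so these groups overlapped. The difference rested there on 15 Klra9 UMIs in IL10/2-Trikine and 7 in mono-IL10. Without a term for the mouse the adjusted p was 0.128, without the filter it was 0.0649, and leaving out single mice gave 0.0255 to 0.289. It was lost without mono-IL10 mouse 1 (0.289) or 2 (0.0682) and without IL10/2-Trikine mouse 1 (0.271), 2 (0.0941) or 5 (0.122). For IL10/2-Trikine against PBS 0 of 6 members were called, beside 0.0954% of genes, and 0 had an unadjusted p under 0.05, beside 7.87%. For mono-IL10 against PBS 0 of 6 were called, beside 0.143% of genes, and 1 had an unadjusted p under 0.05, beside 6.25%. DESeq2 was not run on this term.

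In gdT/NKT cells mono-IL10 was compared with PBS. A test was run with at least 3 mice per group, and 2 IL10/2-Trikine mice had at least 5 such cells, so their values are given without a test. Klra1 was at 233, 57.4, 627, 205 and 436 CPM in the PBS mice, at 185, 377, 474, 389 and 373 in mono-IL10 and at 141 and 280 in the IL10/2-Trikine mice. Klra7 was at 182, 230, 314, 410 and 713 CPM in PBS, at 448, 269, 59.2, 389 and 326 in mono-IL10 and at 459 and 503 in IL10/2-Trikine. The groups overlapped for both, and the part of the NK-rich cells of the cluster in these values was not tested. The log2 difference of mono-IL10 from PBS was 0.14 ± 0.38 for Klra1 and -0.13 ± 0.34 for Klra7 (fold intervals 0.648 to 1.88 and 0.566 to 1.48). Neither was called by edgeR (adjusted p = 0.978 each), beside 0% of 599 genes, of which 41 had an unadjusted p under 0.05. DESeq2 called none either.

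Members per gdT/NKT cell after thinning averaged 0.894 ± 0.422 in PBS and 0.690 ± 0.251 in mono-IL10 (SD, n = 5 each), and 0.75 and 1.0 in the 2 IL10/2-Trikine mice. In Cycling_T cells they averaged 0.198 ± 0.286 in PBS (n = 5), 0.111 ± 0.128 in mono-IL10 (n = 4) and 0.599 ± 0.282 in IL10/2-Trikine (n = 5, SD). In the CD4 T clusters the group means were 0.011 to 0.024, and 0 of 372 cells had 2 or more.

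Cycling_NK cells were too few to compare, as the PBS library held 4 of them, the mono-IL10 library 10 and the IL10/2-Trikine library 54. In the 4 IL10/2-Trikine mice with at least 5 of them Klra4 was at 221, 307, 823 and 577 CPM and Klra7 at 487, 745, 253 and 272. These cells carried 1.54 ± 0.610 members after thinning (SD, n = 4). Members were found in 59 of all 68 cells.

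Across the 12 annotated clusters, the genes whose level followed the summed members most closely were Itgax (CD11c, Pearson r = 0.975 on log2(CPM + 1)), ENSMUSG00000121360 (0.963), Klrb1c (0.945), Klre1 (0.941) and Spry2 (0.941), among 6255 genes. The clusters share libraries and differ in depth, so these values are a description. Among the other Klra features, Klra5 was found in 10.4% of NK and 18.0% of gdT/NKT cells, and Klra6 in 2.26% and 11.7%. Klra2 and Klra10 were in 1.01% and 1.13% of NK cells, and Klra17 had no UMI in the annotated cells.

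Klra4 transcripts were also counted outside the lymphocytes. Barcodes outside the annotation with at least 3 UMIs of Krt8, Krt18, Krt19 and Epcam and none of Ptprc, Cd3e, Ncr1 and Klrb1c, which have the epithelial transcripts of the tumor, numbered 10763 (PBS), 7879 (mono-IL10) and 23543 (IL10/2-Trikine). Klra4 was at 26.6, 34.7 and 26.2 CPM there, and in 28.4%, 41.4% and 16.8% of these barcodes. Their median depths were 18132, 27128 and 8333 UMIs, against 3034 in NK cells, where Klra4 was at 291 CPM.

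Klra8 did not accompany it. In the same barcodes 6236, 8618 and 5700 UMIs of Klra4 stood beside 0, 5 and 15 of Klra8, whereas NK cells had 136, 475 and 263 of Klra4 and 125, 438 and 282 of Klra8. The 95% counting interval of the 0 in PBS reached 0.0157 CPM. Klra1 was at 1.16 to 1.42 CPM in these barcodes, and Klra3, Klra7 and Klra9 were at 0.202 CPM or less. In barcodes with Ptprc and no keratin or Epcam UMI, also outside the annotation, Klra4 and Klra8 were near each other, with 550 and 560, 655 and 736, and 1243 and 1171 UMIs. What gave the Klra4 counts of the keratin barcodes was not tested. Klra4 was in 1 of the 372 annotated CD4 T cells. The keratin and Epcam UMIs of the NK cells summed to 0 to 87.9 CPM per mouse, and their part in the Klra4 values was not tested.

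**Figure D5:**
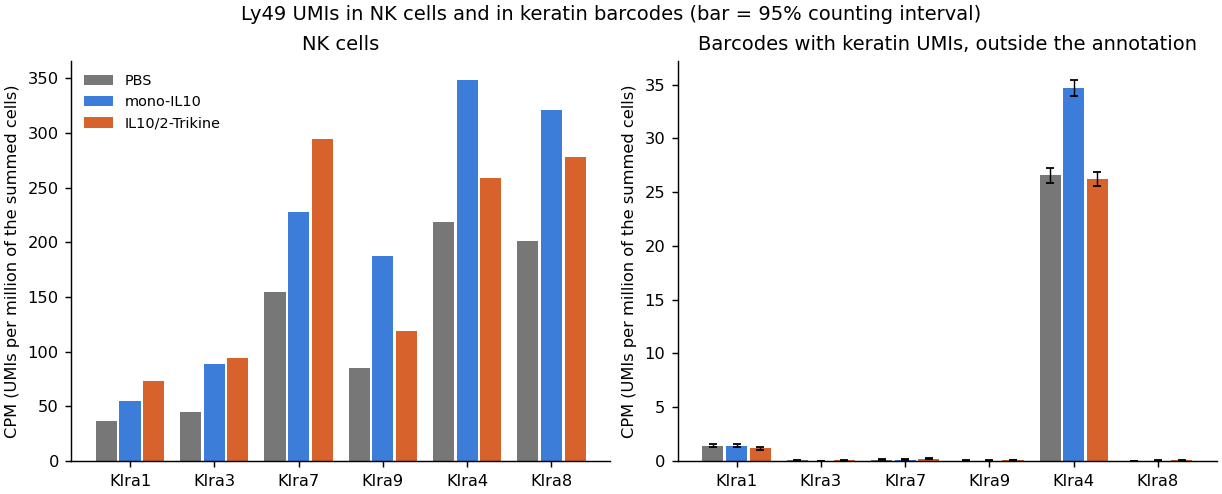
CPM of the 6 Ly49 genes by library in NK cells (left) and in barcodes with keratin or Epcam UMIs outside the annotation (right, with 95% counting intervals, on another scale). Klra4 was at 26.2 to 34.7 CPM in the keratin barcodes, where Klra8 was at 0.069 or less, while in NK cells of all libraries they were at 291 and 281 CPM.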

How the data were processed

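UMI counts per gene and barcode were deposited by the authors without normalization, made with Cell Ranger 9.0.1 on GRCm39 with intronic reads included. The deposited cell table holds the cluster names and hashtag calls. Per the study's methods, cells under 1000 genes or over 10% mitochondrial UMIs had been removed. Cells called doublets are not in the deposited cell table, a step that those methods do not describe. In that table, 7858 cells of a further group were not used. Gene UMIs totalled 515236552, 458860129 and 364814102 in the PBS, mono-IL10 and IL10/2-Trikine libraries.

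UMIs were summed per mouse and cluster for mice with at least 5 cells, in groups of at least 3 such mice, and tested with edgeR 4.0.16 (quasi-likelihood, R 4.3.3, TMM, its default filter on low counts, all 3 treatments in 1 fit, Benjamini-Hochberg adjustment over all genes, threshold 0.05). The interaction fit had a term for each mouse. In simulated NK sums (IL10/2-Trikine against PBS, 2130 genes), 93 of 100 genes changed 4-fold and 31 of 100 changed 2-fold were recovered. The simulation gave all genes the same spread and changed only genes of higher counts, so these rates do not carry over to sparser or more variable members. Thinning drew UMIs at random (numpy 2.4.6). DESeq2 1.42.0 and the other alternatives are given in the closing section. Members and gene lists (the named genes are all 6 members and up to 4 of each list, those of smallest p) were chosen with earlier results of these data known. PBS had 5 hashtags, while the labels give 5 mice for the treated groups.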

Additional observations from a re-analysis of the deposited data

Results flagged for a closer look

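Of 72 groups of mice checked, 11 had a mouse that stood far from the others of its group. In NK cells these were mono-IL10 mouse 3 for Klra1 (333 CPM) and Klra7 (618 CPM), a mouse with 9 NK cells, IL10/2-Trikine mouse 1 for Klra3 (193 CPM) and IL10/2-Trikine mouse 3 for Klra4 (365 CPM). In Cycling_T cells they were PBS mouse 3 for Klra3 (155 CPM) and Klra8 (413 CPM), PBS mouse 4 for Klra9 (104 CPM), and IL10/2-Trikine mouse 3 for Klra4 (235 CPM) and for the 6 genes summed (798 CPM). In gdT/NKT cells they were mono-IL10 mouse 4 for Klra3 (194 CPM) and mono-IL10 mouse 1 for Klra4 (108 CPM). The check is set to flag about 1 in 20 groups by chance, for normally spread values. A group with 1 mouse above 0 and the others at 0 is always flagged. This was so for Klra3 in PBS Cycling_T cells and Klra4 in mono-IL10 gdT/NKT cells. The groups also overlap, as the 6 genes summed were checked beside each gene, so no excess of such mice is read from the count.

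The Klra9 difference between IL10/2-Trikine and mono-IL10 was not the same in Cycling_T and NK cells, by 2.59 on the log2 scale in the interaction term, where genes of the other lists were called in the same direction.

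In barcodes with keratin or Epcam UMIs, which no comparison used, the 95% counting interval lay above that of PBS for Klra4 in mono-IL10 (34.7 CPM) and for Klra8 (0.069 CPM, 15 UMIs) and Klra9 (0.0828 CPM, 18 UMIs) in IL10/2-Trikine. These intervals cover counting error in single libraries only, not the spread between mice or libraries, so no difference between treatments is read from them.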

How the results depend on the processing

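Mice of different treatments could not be paired, because hashtag numbers only name mice within a treatment, so a replicate block has no meaning between groups. Of the counts of members called, 40 were unchanged and 9 moved over the alternative settings. In NK cells, IL10/2-Trikine against PBS gave 1 called member (Klra7) without the filter, with at least 10 cells, with these 2 groups only and by DESeq2. Mono-IL10 against PBS gave 3 without the filter (Klra7, Klra8 and Klra9), 0 with all mice thinned to 1 total, where Klra9 was not tested, and 0 by DESeq2, which gave Klra9 no adjusted p. Klra9 was called in all 10 fits that left out a mouse (log2 difference 1.19 to 1.80, adjusted p 0.0016 to 0.0403). The interaction of IL10/2-Trikine against mono-IL10 gave 0 without the filter and with no mouse block, and 0 to 1 with a mouse left out. Without thinning, members per cell were 0.963 (NK, PBS), 1.43 (NK, mono-IL10), 0.270 (Cycling_T, mono-IL10), 0.935 (Cycling_T, IL10/2-Trikine) and 1.03 (gdT/NKT, mono-IL10).

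Signs turned only in differences that were not called. In NK cells of IL10/2-Trikine against mono-IL10 these were Klra1 by DESeq2 (-0.24), Klra4 with Cycling_NK added (0.089), Klra7 without the filter (-0.028) and Klra8 thinned (0.0049). Others were Klra1 in mono-IL10 against PBS with at least 10 cells (-0.084), Klra7 in Cycling_T cells of mono-IL10 against PBS by DESeq2 (-0.14) and the Klra7 interaction of IL10/2-Trikine against PBS with at least 10 cells (-0.047). With a mouse left out, NK values ranged from -0.0081 to 0.80 for Klra4 (IL10/2-Trikine against PBS), from -0.13 to 0.84 for Klra1, from -0.12 to 0.36 for Klra7 and from -0.47 to 0.056 for Klra8 (IL10/2-Trikine against mono-IL10), and from -0.084 to 0.93 for Klra1 (mono-IL10 against PBS). For mono-IL10 against PBS they ranged from -0.48 to 0.89 for Klra7 in Cycling_T cells, and in gdT/NKT cells from -0.044 to 0.52 for Klra1 and from -0.35 to 0.19 for Klra7. In the interaction they ranged from -0.44 to 0.998 for Klra7 and from -0.93 to 1.497 for Klra9 (IL10/2-Trikine against PBS), and from -1.39 to 0.10 for Klra7 (mono-IL10 against PBS). The cause of these changes was not tested.

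Genes called in NK cells numbered 77 for IL10/2-Trikine against PBS (36 without the filter, 48 thinned), 70 against mono-IL10 (40 without it, 35 with at least 10 cells, 27 thinned), and 19 for mono-IL10 against PBS (33, 8 and 5, and 12 with 2 groups only). The log2 median of all genes moved to 0.16 in mono-IL10 against PBS without the filter and to -0.17 by DESeq2. Cycling_T cells of mice with at least 10 cells were not compared with PBS, which had 2 such mice. Depth limits the values, since a mouse held at most 36 UMIs of any member in Cycling_T cells and 29 in gdT/NKT cells, against up to 129 in NK cells.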
